A study of Mus musculus with 2 samples.

Results

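The Mmp, Adam and Adamts metalloproteases were examined in uterine stromal cells of Msx1Msx2-null and floxed control mice. They were taken as all probe sets whose single gene symbol in the platform annotation is a numbered Mmp, Adam, Adamts or Adamtsl gene, which gave 66 genes on 111 probe sets, out of 18193 genes on 34945 probe sets. By family these were 18 Mmp, 28 Adam, 15 Adamts and 5 Adamtsl genes. The last are Adamts-like proteins, which share the accessory domains of Adamts enzymes and have no protease domain. Protein-coding RefSeq genes of these families without a single-symbol probe set were not covered. They were Adam20, Adam26b, Adam29, Adam30, Adam34l, Adam39, Adamts13, Adamts14, Adamts17, Adamts2, Mmp15, Mmp21, Mmp25, Mmp27 and Mmp28. The cells came from C57BL/6 mice on day 4 of pregnancy. In the Msx1Msx2-null animals floxed Msx1 and Msx2 had been deleted in the uterus with PRcre, a Cre recombinase driven by the progesterone receptor gene, while controls are described as Msx1Msx2 floxed, with no statement on whether they carry PRcre. The recombinase is active wherever the progesterone receptor is expressed, so the deletion is not limited to stroma. RNA of several mice per genotype was pooled (5 per genotype in the treatment protocol, 4 in the extraction protocol) and hybridized to 1 Affymetrix 3' expression array per genotype.

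Metalloproteases of these families carry a zinc ion in their active site. Matrix metalloproteases (Mmps) are made as inactive precursors and cut collagens, gelatin and other matrix proteins, either after secretion or while anchored in the plasma membrane. Adams are membrane proteins, and the catalytically active ones release the outer part of growth factors, cytokines and adhesion molecules from the cell surface. Adamts enzymes are secreted, and several of them cut versican and related proteoglycans or trim procollagens. In the pregnant uterus such enzymes and their inhibitors, the Timps, are known for their part in matrix remodelling around the implanting embryo.

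Each array gave 1 MAS5 signal per probe set, a background-corrected intensity in arbitrary units. A signal above the 50th percentile of its array was treated as measured, which put the floor at 30.1 in the null and 31.0 in the control array, and lower signals were raised to that floor before a ratio was taken. Where a gene had several probe sets, the one of highest mean log2 signal stood for it. All ratios are null over control, and a gene counted as different at a 2-fold ratio. With 1 array per genotype there was no replicate error and no test, and genotype, choice of mice and hybridization cannot be told apart in any difference. As a scale for probe-set noise, log2 ratios were compared between pairs of probe sets of the same gene, which over 4690 genes gave an SD of 0.27 for 1 probe set. It was 0.38 over the 15 members with such pairs, and 0.32 in the dim and 0.21 in the bright tertile of all genes. Signals of different genes come from different probes, and single genes were not set against each other. Summed signals of a marker list are weighted to its brightest probe sets.

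Signals of both deleted genes were lower in null cells. Msx1 had a signal of 23.0 in the null and 1581 in the control array, at least 52.6-fold lower, and Msx2 had 14.5 in the null and 63.7 in the control array, at least 2.12-fold lower. The position of these probe sets relative to the floxed sequence is not known here. The cells carried the transcripts of stroma in both arrays, with 12 of 12 fibroblast markers above the floor in both and a median log2 ratio of 0.13. Markers of other cells were present too: 15 of 15 epithelial, 12 of 12 macrophage, 12 of 12 endothelial, 7 of 7 pericyte and 9 of 9 smooth muscle markers were measured. Of the epithelial markers, 12 of 15 had negative ratios, 6 were past 2-fold lower and 2 past 2-fold higher, with a median of -0.40 and a summed signal of 11174 in the null and 19411 in the control array. The gland genes Spink1 and Foxa2 had log2 ratios of -5.77 and -2.18, Prss29 had a bound of -4.18, and Ltf had 2.66. Spink1, at 85.2 in the null and 4657 in the control array, weighs heavily on the summed signal. The 3'/5' signal ratio, a sign of RNA degradation when high, was 1.28 in the null and 0.967 in the control array for Gapdh, and 2.33 in the null and 1.80 in the control array for Actb. The part of cell makeup and RNA quality in the ratios below was not tested. In pooled RNA of a mixed cell preparation, fewer cells of a type and less RNA per cell cannot be told apart.

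In either direction, the share of metalloproteases past each fold limit was close to the share of all measured genes. Of the 66 genes, 37 were measured, 29 of them in both arrays, and 29 were under the floor in both. Among the 37 measured genes 0 were at least 2-fold higher and 1 was at least 2-fold lower, Adamts16, against a background of 1.59% of all 11833 measured genes higher, 1.80% lower and 3.39% in either direction. At the lower limit of 1.5-fold, 2 members (Adam12 and Adamts7) were higher and 3 (Adamts16, Adamts6 and Mmp3) were lower, beside 6.79% of all measured genes higher and 6.92% lower. Together these 5 are 13.5% of the 37 members, and 13.7% of all measured genes passed that limit. The median log2 ratio of the 37 was -0.0067, beside 0.017 for all measured genes. Over genes measured on both arrays the median absolute log2 ratio was 0.28 for metalloproteases and 0.22 for all genes.

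**Figure D1:**
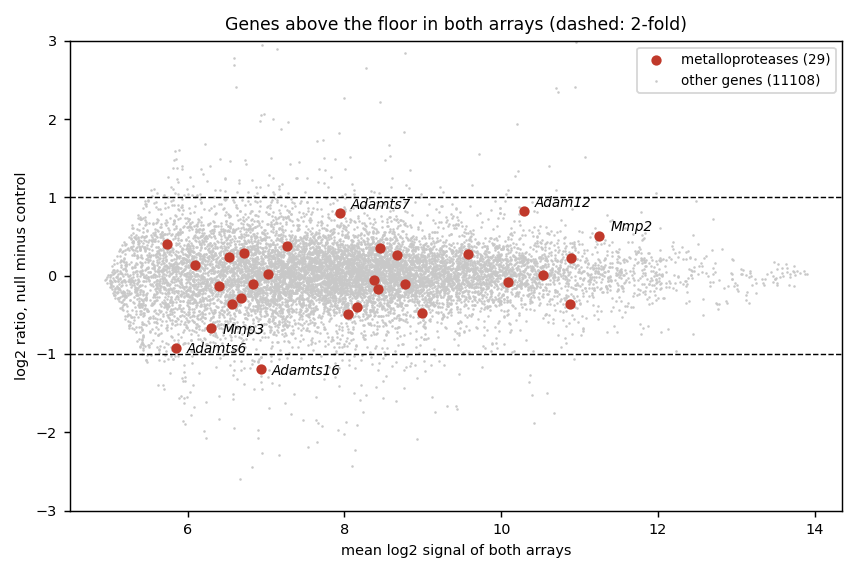
Log2 ratio of null over control against the mean log2 signal of both arrays, for genes measured in both arrays; red points are the 29 metalloproteases and grey points the other 11108 genes, of which 4 lie outside the axis at 3. A single red point, Adamts16, lies beyond the dashed 2-fold lines, and the red points span the same range of signal as most grey ones.

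The split of directions varied by family among genes measured on both arrays. Of 8 Mmps, 6 had positive and 2 negative ratios, with a median of 0.23. Of 11 Adamts genes, 3 had positive and 8 negative ratios, with a median of -0.17. The 8 Adams were split into 4 and 4, and the 2 Adamtsl genes into 1 and 1. Over all genes 52.5% of ratios were positive. These are counts from 1 pair of arrays, and the difference between the families was not tested.

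**Figure D2:**
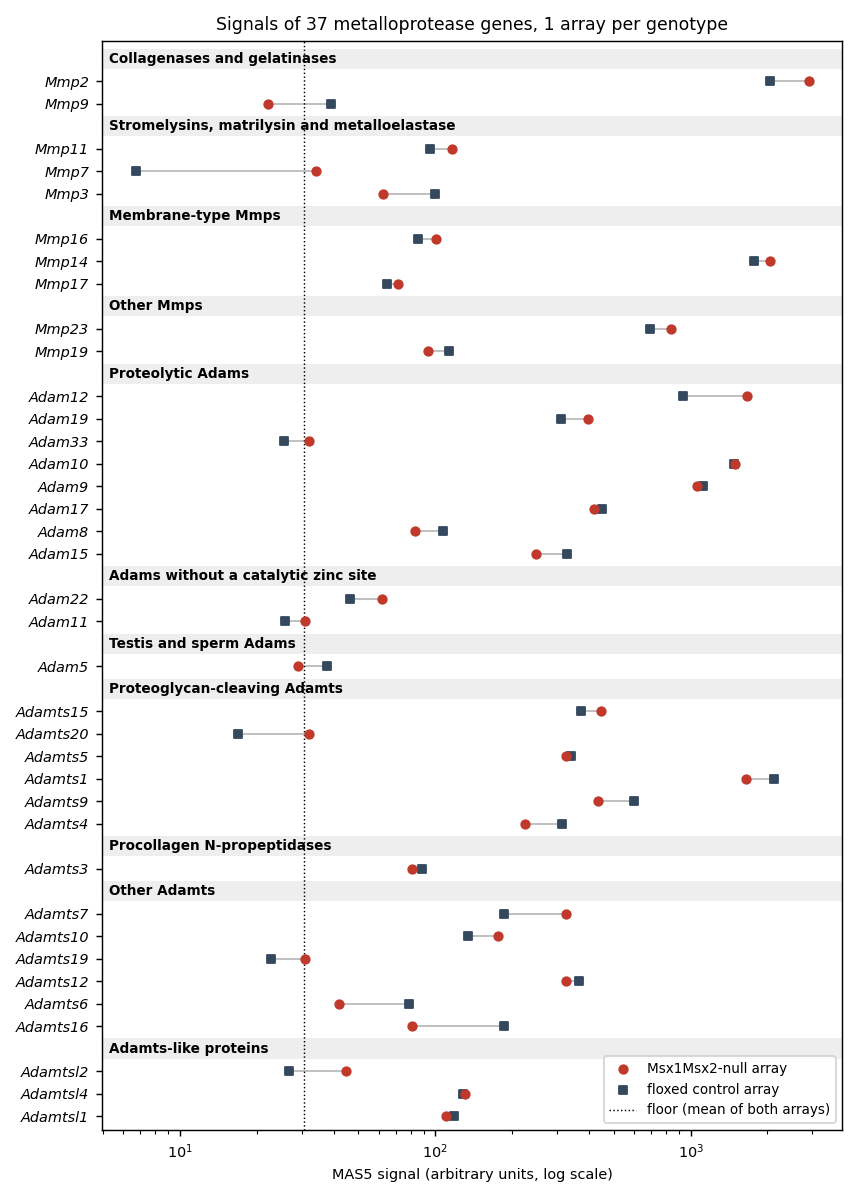
MAS5 signal on a log scale of the 37 measured metalloprotease genes by role, in the Msx1Msx2-null array (circles) and the floxed control array (squares), with the floor as a dotted line. Signals are to be compared within a gene; in most rows the circle and the square lie close together, and Mmp9, Mmp7, Adam33, Adam11, Adam5, Adamts20, Adamts19 and Adamtsl2 have 1 of their signals under the floor.

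Among the collagenases and gelatinases, the gelatinase gene Mmp2 was higher on both of its probe sets and the collagenase genes were not measurable. Mmp2 encodes gelatinase A, which cuts denatured collagen and type IV collagen. Its signal was 2903 in the null and 2046 in the control array on probe set 1416136_at, 1.42-fold higher, and 2892 in the null and 1867 in the control array on 1439364_a_at, 1.55-fold higher. Both probe sets gave the null array the higher signal, with log2 ratios of 0.50 and 0.63. Mmp9, gelatinase B, which leukocytes and trophoblast are known to make, was at 22.1 in the null array, under the floor, and at 39.1 in the control array, at least 1.30-fold lower. The neutrophil markers S100a8, S100a9 and Csf3r, the 3 that were measured, had log2 ratios between -0.91 and -0.35, with a summed signal of 165 in the null and 241 in the control array, while Cxcr2, Elane, Mpo, Camp and Ngp were under the floor in both. Of the macrophage markers, 12 of 12 had negative ratios with a median of -0.47 and a summed signal of 7020.0 in the null and 9909 in the control array. Their part in the Mmp9 value was not tested. Mmp1a, Mmp1b, Mmp8 and Mmp13, the collagenases, stayed under the floor on both arrays.

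The stromelysin gene Mmp3 was lower, and its relatives were dim or close in both arrays. Mmp3, stromelysin-1, digests proteoglycans, fibronectin and laminin and activates other Mmp precursors. It had a signal of 62.6 in the null and 99.6 in the control array on its single probe set, 1.59-fold lower. With a floor at the 65th percentile its null signal fell under the floor, and a bound of -0.30 stood in place of the log2 ratio of -0.67. Mmp11, stromelysin-3, which furin activates inside the cell, had 116 in the null and 95.5 in the control array, a log2 ratio of 0.28. Mmp7, matrilysin, known as an epithelial product in the uterus, was just above the floor at 34.1 in the null and far under it at 6.69 in the control array, which gives at least 1.10-fold higher. The ratio of its unfloored signals was 2.35 on the log2 scale, a value that rests on a control signal far under the floor. Of the epithelial markers given above, 12 of 15 went the other way, and their part in the Mmp7 value was not tested. Mmp10 and Mmp12 lay under the floor on both arrays.

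Most of these secreted Mmps are encoded next to each other. A single run on chromosome 9 of the RefSeq gene table held 9 members, in the order Mmp13, Mmp12, Mmp1b, Mmp3, Mmp1a, Mmp10, Mmp8, Mmp20 and Mmp7. Of these 9 genes 2 were measured, Mmp3 and Mmp7 (22.2%), against 35 of the 57 other members (61.4%). Among all genes 11833 of 18193 were measured, a share close to that of the other members. The 2 measured genes of the run went in opposite directions, and Mmp7 was measured in the null array alone.

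RefSeq promoter windows of GRCm38.p6 were found for 18 of the 37 measured members. They are shown for Mmp3 and Mmp14, the 2 members whose window holds TAATTG (the core of the sites that many homeodomain proteins bind, Msx proteins among them), and for Mmp7, the other measured gene of the chromosome 9 run. Each line holds the 250 bases before the annotated start, 5′ to 3′ on the gene's strand (+ for each of them), and capitals mark the homeodomain core TAATTG, the AP-1 site TGANTCA, the TATA box TATAAA and the GC box GGGCGG on either strand. The windows are chr9:7445572-7445821 for Mmp3, chr9:7691840-7692089 for Mmp7 and chr14:54431348-54431597 for Mmp14.
Mmp3: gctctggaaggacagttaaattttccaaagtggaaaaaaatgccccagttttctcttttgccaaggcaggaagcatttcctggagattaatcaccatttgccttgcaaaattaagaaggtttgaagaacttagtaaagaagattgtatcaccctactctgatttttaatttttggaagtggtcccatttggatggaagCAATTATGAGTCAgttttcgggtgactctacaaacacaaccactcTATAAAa
Mmp7: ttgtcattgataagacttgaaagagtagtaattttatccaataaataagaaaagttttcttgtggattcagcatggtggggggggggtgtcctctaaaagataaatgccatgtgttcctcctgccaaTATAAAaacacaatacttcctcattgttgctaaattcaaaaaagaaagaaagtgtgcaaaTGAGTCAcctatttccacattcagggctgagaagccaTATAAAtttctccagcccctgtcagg
Mmp14: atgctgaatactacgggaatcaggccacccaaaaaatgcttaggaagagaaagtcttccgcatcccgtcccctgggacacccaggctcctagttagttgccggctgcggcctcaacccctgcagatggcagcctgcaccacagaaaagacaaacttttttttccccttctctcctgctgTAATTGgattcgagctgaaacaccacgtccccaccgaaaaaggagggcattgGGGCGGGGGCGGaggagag
In Mmp3 the reverse complement of TAATTG began 52 bases before the start and ran directly into an AP-1 match at 46 bases, without overlap, and a TATA match began at 7 bases. In the Mmp7 window shown, an AP-1 match began 63 bases before the start and TATA matches at 123 and 26 bases, with no TAATTG. A second annotated start of Mmp7 has the window chr9:7692091-7692340, which held none of these motifs. In Mmp14 TAATTG began at 71 bases and GC box matches at 19 and 13 bases, with no AP-1 or TATA match. The comparison set was 32851 windows of the same length over 27025 annotated genes, whether or not they were on the array. Of these windows 7.17% held TAATTG, 6.75% TGANTCA, 12.4% TATAAA and 32.7% GGGCGG. Of the 22 windows of the 18 members, 9.09% held TAATTG, 13.6% TGANTCA, 18.2% TATAAA and 54.5% GGGCGG. The median GC content was 62.4% in member windows and 52.4% in all windows. Member windows come from measured genes alone, so the sets differ in more than gene family. Differences in these shares were not tested. Of the members with TAATTG, Mmp3 had a negative and Mmp14 a positive ratio. A match of letters is a description of the window and not a binding site.

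The membrane-type Mmps covered here had small positive ratios on every probe set measured in both arrays. Mmp15 and Mmp25, also membrane-type, had no single-symbol probe set. Mmp14, which sits on the cell surface and activates the precursor of Mmp2 with the help of Timp2, had a signal of 2056 in the null and 1766 in the control array, 1.16-fold higher. Its 3 probe sets gave log2 ratios between 0.21 and 0.28. Mmp16, another activator of the Mmp2 precursor, had 101 in the null and 85.2 in the control array, a log2 ratio of 0.24, and its 3 probe sets ranged between 0.0046 and 0.25. Mmp17, which is held in the membrane by a lipid anchor, had 71.2 in the null and 64.97 in the control array, a log2 ratio of 0.13. These differences were smaller than or close to the probe-set SD of 0.27 over all genes. Mmp24 was under the floor in both arrays.

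The other Mmps were also close. Mmp23, an enzyme with a cysteine-rich domain in place of the usual hemopexin domain, had 836 in the null and 692 in the control array, a log2 ratio of 0.27, with 0.18 on its second probe set. Mmp19, a widely expressed secreted Mmp, had 93.4 in the null and 113 in the control array, a log2 ratio of -0.28, with -0.16 on its second probe set. The enamel protease gene Mmp20 was under the floor in both arrays.

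Among the proteolytic Adams, Adam12 was higher on one probe set and not on another, and Adam15 and Adam17 were lower on all of theirs. Adam12, meltrin alpha, releases the growth factor Hbegf and cuts insulin-like growth factor binding proteins. It had a signal of 1663 in the null and 937 in the control array on probe set 1421172_at, 1.77-fold higher, but 186 in the null and 210 in the control array on 1421171_at, a log2 ratio of -0.17. Adam19, meltrin beta, showed the same split, with 396 in the null and 311 in the control array on one probe set, a log2 ratio of 0.35, and -0.23 on the other. The probe sets of these genes do not give a single direction.

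Adam15, an Adam with an integrin-binding disintegrin domain, had a signal of 249 in the null and 327 in the control array on probe set 1438760_x_at, 1.32-fold lower. Its other probe sets measured on both arrays gave log2 ratios of -0.77 and -0.40, and a further one, at 22.1 in the null and 47.2 in the control array, was at least 1.57-fold lower. Adam17, the enzyme that releases tumour necrosis factor and several epidermal growth factor ligands, had 420.0 in the null and 452 in the control array, a log2 ratio of -0.10, and -0.38 and -0.71 on its other probe sets. All 4 probe sets of Adam15 above the floor in at least 1 array and all 3 of Adam17 were thus lower in the null array.

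Adam8, known from leukocytes, had 83.3 in the null and 107 in the control array, a log2 ratio of -0.36, which went the same way as the macrophage markers given above. Adam9, meltrin gamma, had 1059 in the null and 1120.4 in the control array, a log2 ratio of -0.08. Adam10, the enzyme that cuts Notch receptors and cadherins, had 1489.5 in the null and 1480.5 in the control array, a log2 ratio of 0.0088, but -0.60 on its second measured probe set, so it had no settled direction. Adam33 had 32.0 in the null and 25.6 in the control array, around the floor, and Adam28 was under the floor in both.

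The Adams outside the proteolytic set were mostly too dim to read. Adam22, a neuronal receptor of Lgi1 without a catalytic zinc site, had 61.6 in the null and 46.5 in the control array, a log2 ratio of 0.41. Adam11, a related protein, had 30.9 in the null and 25.9 in the control array, so close to the floor that no fold is given, and Adam23 was under it in both. Of 16 testis and sperm Adams, 15 had both signals under the floor. The exception was Adam5, a sperm protein gene, at 28.9 in the null and 37.6 in the control array, at least 1.25-fold lower. A signal under the floor does not show that a gene is silent.

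**Figure D3:**
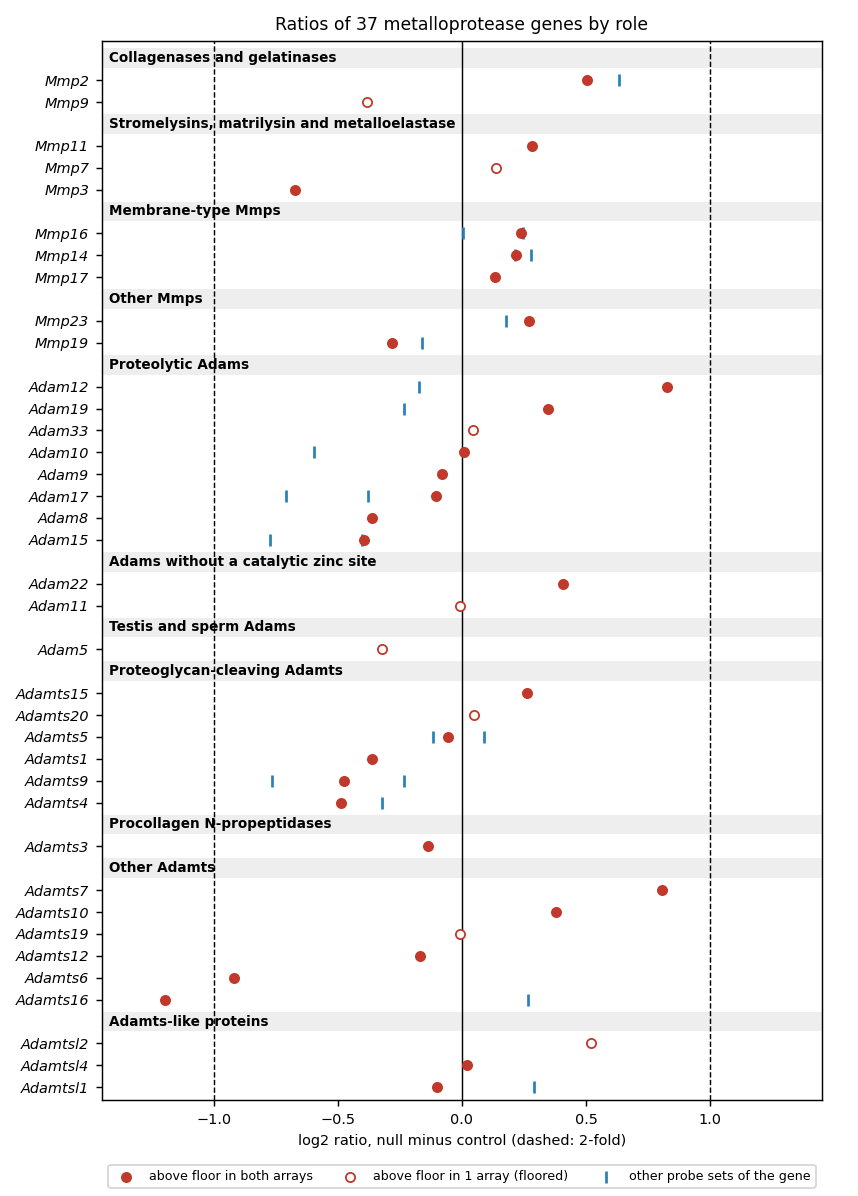
Log2 ratio of null over control for the 37 measured metalloprotease genes by role; filled circles were measured in both arrays, open circles in 1 array with the other signal raised to the floor, and blue ticks are further probe sets of the gene measured in both. Adamts16 is the 1 circle beyond the dashed 2-fold lines, and its blue tick lies on the other side of 0; the ticks of Mmp2, Mmp14, Adam15, Adam17, Adamts4 and Adamts9 lie on the same side as their circles.

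Among the Adamts enzymes that cut proteoglycans, 4 of the 5 genes measured on both arrays had negative ratios. None was lower by 1.5-fold on the probe set that represents the gene, and Adamts5 had another probe set of opposite sign. Of all genes measured on both arrays, 52.5% had positive ratios. Adamts4, aggrecanase-1, had a signal of 224 in the null and 314 in the control array, 1.40-fold lower, with a log2 ratio of -0.32 on its second probe set. Adamts9, a versican-cutting enzyme, had 432 in the null and 601 in the control array, 1.39-fold lower, and its other probe sets gave -0.23 and -0.77. Adamts1, which cuts versican and is known as a progesterone-induced gene of the ovulating follicle, had 1655 in the null and 2128 in the control array on its single probe set, 1.29-fold lower. Each of these 3 genes was lower on every probe set above the floor.

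Adamts5, aggrecanase-2 and the neighbour of Adamts1 on chromosome 16, had 325 in the null and 339 in the control array, a log2 ratio of -0.06, with 0.09 and -0.12 on its other probe sets. Adamts15 went the other way, with 446 in the null and 372 in the control array, a log2 ratio of 0.26. Adamts20, known from the belted coat pattern of mice that lack it, was near the floor at 32.1 in the null and 16.9 in the control array, at least 1.03-fold higher, and Adamts8 was under the floor in both. Vessel markers went the same way as Adamts1, Adamts4 and Adamts9, and so did most measured macrophage, epithelial, neutrophil and mast cell markers. Endothelial markers were lower in 12 of 12, with a median of -0.66 and a summed signal of 3706 in the null and 5575 in the control array, led by Emcn, Pecam1 and Tek at -0.89, -0.80 and -0.76. Pericyte markers were lower in 6 of 7, with a median of -0.51 and a summed signal of 7629 in the null and 10693 in the control array. Within that sum Rgs5 alone had 5125 in the null and 7277 in the control array. The part of any of these cells in the ratios of these enzymes, and of Adam15, was not tested.

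The remaining Adamts genes ranged between log2 ratios of -1.19 for Adamts16 and 0.80 for Adamts7. Adamts16, a secreted protease known from kidney and gonad development, had a signal of 81.0 in the null and 185 in the control array on probe set 1439604_at, 2.29-fold lower. Its second probe set, 1441841_at, had 43.1 in the null and 35.8 in the control array, a log2 ratio of 0.27, so the single member past 2-fold did not hold its direction across probe sets. With the median over the gene's probe sets its log2 ratio was -0.46 in place of -1.19. Adamts6, which acts on fibrillin microfibrils, had 41.8 in the null and 79.1 in the control array, 1.89-fold lower, and its second probe set was under the floor in both arrays.

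Adamts7, which cuts cartilage oligomeric matrix protein and is known for its role in vascular smooth muscle, had 325 in the null and 186 in the control array on its single probe set, 1.75-fold higher. Adamts12, the closest relative of Adamts7, had 324 in the null and 364 in the control array, a log2 ratio of -0.17. Smooth muscle markers were higher in 8 of 9, with a median of 0.40 and a summed signal of 14812 in the null and 11094 in the control array. Natural killer and T cell markers were higher in 6 of 7 measured and fibroblast markers in 8 of 12. The part of any of these cells in the Adamts7 value was not tested. Adamts10, a fibrillin-binding enzyme, had 175 in the null and 135 in the control array, a log2 ratio of 0.38. Adamts3, which trims procollagen and activates the lymphatic growth factor Vegfc, had 80.7 in the null and 88.8 in the control array, a log2 ratio of -0.14. Adamts19 had 30.9 in the null and 22.8 in the control array, too close to the floor for a fold, and Adamts18 was under it in both.

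The Adamts-like proteins, which bind fibrillin and other matrix proteins without cutting them, had no consistent direction. Adamtsl2, which binds a latent TGF-beta binding protein, had 44.6 in the null and 26.7, under the floor, in the control array, at least 1.44-fold higher. Adamtsl4 had 131 in the null and 129 in the control array, a log2 ratio of 0.02. Adamtsl1 had 110.4 in the null and 118 in the control array, a log2 ratio of -0.10, and 0.29 on a second probe set. A further probe set, 1437429_at, had 29.9 in the null, just under the floor, and 72.1 in the control array, at least 2.40-fold lower. Adamtsl3 and Adamtsl5 lay under the floor on both arrays.

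Taken by probe set instead of by gene, 60 of the 111 were above the floor in at least 1 array and 2 were past 2-fold, those of Adamts16 and Adamtsl1 named above, against 3.15% of all 20515 such probe sets. For 15 members at least 2 probe sets were measured on both arrays. All probe sets of a gene had the same sign in 9 of the 15 (60.0%), beside 53.7% of all 4690 genes with such probe sets. The 4 genes higher on all of them were Mmp2, Mmp14, Mmp16 and Mmp23, and the 5 lower on all of them were Mmp19, Adam15, Adam17, Adamts4 and Adamts9. Mmp16 is among the 9 by a narrow margin, since its lowest log2 ratio was 0.0046. The 6 without a single direction were Adam10, Adam12, Adam19, Adamts5, Adamts16 and Adamtsl1. Mmp2 was the 1 member of the 9 with every log2 ratio of at least 0.50 in size.

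Among the inhibitors of metalloproteases A2m was higher and Timp3 was lower on all of its probe sets. Timp2, which inhibits Mmps and also links Mmp14 to the Mmp2 precursor, had 2455 in the null and 2298 in the control array, a log2 ratio of 0.10, with 3 of its other probe sets of opposite sign. Timp3, the matrix-bound Timp that also inhibits Adam17 and the aggrecanases, had 987 in the null and 1286 in the control array, 1.30-fold lower, and all 4 of its probe sets were lower, with log2 ratios between -0.94 and -0.38. Timp1 had 282 in the null and 314 in the control array, a log2 ratio of -0.16, and Timp4 was under the floor in both. Reck, a membrane-anchored inhibitor of Mmps, had 678 in the null and 534 in the control array, a log2 ratio of 0.34. A2m, alpha-2-macroglobulin, which traps proteases of all classes, had 1328 in the null and 135 in the control array, 9.87-fold higher. Spock2, a matrix proteoglycan, had -0.36 and was counted in this list, though nothing here shows that it acts as an inhibitor. A2m was the 1 gene past 2-fold among 6 measured of the 9 listed. Of these, 3 had positive ratios (A2m, Reck and Timp2) and 3 negative ones (Timp1, Timp3 and Spock2).

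Of 17 activators and cofactors 14 were measured, 12 of them with negative ratios, 1 past 2-fold lower and 0 past 2-fold higher, with a median of -0.17. The one past 2-fold was Tspan33, a tetraspanin that escorts Adam10 to the cell surface, at 30.5 in the null and 80.0 in the control array, 2.63-fold lower, with a log2 ratio of -0.42 on its second measured probe set. Its null signal lay just above the floor. Tspan14, another such tetraspanin, had a log2 ratio of -0.52, and Plat, the tissue plasminogen activator, had 560.4 in the null and 895 in the control array, a log2 ratio of -0.67. Furin, the protease that activates membrane-type Mmps and Adams, had -0.37, and Pcsk6, a related convertase, had 46.3 in the null and 23.8 in the control array, at least 1.49-fold higher. Among the 8 astacins, meprins and their enhancers, 4 were measured. Bmp1, which removes the other end of procollagens than Adamts3 does, had 588 in the null and 335 in the control array, a log2 ratio of 0.81. Its enhancers Pcolce and Pcolce2 had -0.68 and 0.05, and its relative Tll1 had 4.41 in the null and 60.3 in the control array, at least 2.005-fold lower.

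Proteins that these enzymes cut went in both directions. Of 11 collagen genes 10 were measured, 7 with positive ratios, 0 past 2-fold and a median of 0.30. Col6a1, Col6a2, Col5a1 and Col6a3 had log2 ratios of 0.96, 0.72, 0.54 and 0.52. For Col5a1 another probe set also had 0.54, and a dimmer one had -0.10. Col4a1 and Col4a2, the basement membrane collagens, had -0.35 and -0.16. Of 12 proteoglycan and hyaluronan genes 8 were measured, 5 with positive ratios and a median of 0.13. Hapln1, which links proteoglycans to hyaluronan, was the 1 past 2-fold, at 76.6 in the null and 14.2 in the control array, at least 2.47-fold higher, with its 3 other probe sets under the floor in both. Has1, a hyaluronan synthase, had -0.91, Hapln3 had 0.54 and the small proteoglycan gene Bgn had -0.52. Vcan, the versican gene, had 1597 in the null and 1194 in the control array, and its 3 probe sets above the floor had log2 ratios between 0.42 and 0.57. Of the proteoglycan-cutting Adamts genes, Adamts1, Adamts4 and Adamts9 were lower in the null array, Adamts15 was higher and Adamts5 had no single direction, each by less than 2-fold.

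Of 19 membrane proteins shed by Adams 15 were measured, 11 with negative ratios, 1 past 2-fold lower and 0 higher, with a median of -0.18. Tgfa, an epidermal growth factor ligand released by Adam17, had 40.4 in the null and 95.0 in the control array, 2.35-fold lower. The adhesion molecule genes Icam1 and Vcam1 had -0.82 and -0.61, and Cdh2, N-cadherin, had 0.60.

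**Figure D4:**
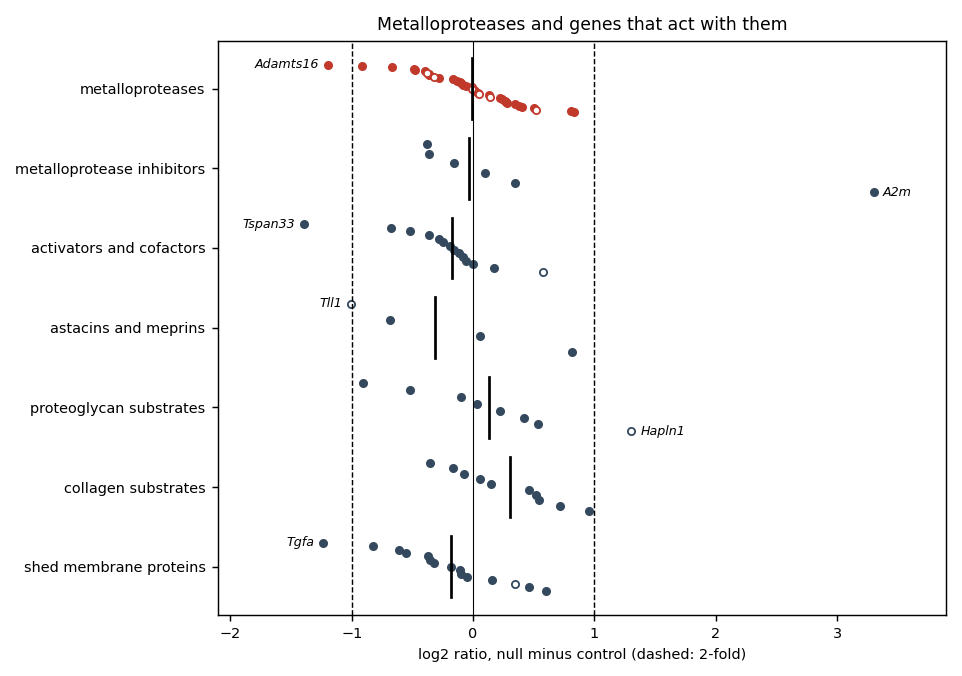
Log2 ratio of null over control for the 37 measured metalloproteases (red) and for measured genes that inhibit, activate or are cut by them (dark), each point 1 gene, open where 1 of the signals was under the floor, with the median of each list as a vertical bar. A2m at 3.30 stands far to the right of all other points, and Adamts16, Tspan33, Tll1 and Tgfa lie beyond 2-fold on the left.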

How the data were processed

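Per the submitters' processing notes, the authors used MAS5 and Affymetrix Expression Console 1. Their deposited table gives each array's intensity for every probe set on a linear scale. The mean after trimming 2% at each end was 150.0 in both arrays, which shows a common scaling. The sources used here give no background settings, detection calls or genome build. The number of arrays limits the precision.

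Of 45101 probe sets, 64 were controls. The rest had 1 symbol (34945), several (932) or none (9160) in the platform annotation. Only those with 1 symbol were used, and 5 probe sets that share a member symbol with another gene were left out. The 66 members' Entrez IDs were all found in the GRCm38.p6 RefSeq table. Log2 ratios, floors and counts were computed in Python 3.11.15 with pandas 2.3.3 and tested on simulated data.

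The rule for named genes took every member past 2-fold, up to 6 measured members of each role group by size of ratio, Timp1 to Timp4 and Reck, up to 4 genes of each other pathway list and up to 3 of each marker list. Adam10, Adam33, Furin, Foxa2, Vcan, Col4a1 and Col4a2, and the members named as under the floor, were chosen after their values were seen, as were the promoters printed. The members and lists were chosen with earlier results of these data known. Alternatives changed the floor, the probe set that represents a gene, the probe sets used, the normalization, the added signal and the call threshold.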

Additional observations from a re-analysis of the deposited data

How the results depend on the processing

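The counts of 0 members higher and 1 lower at 2-fold were the same with a floor at the 65th percentile (26 members measured), without probe sets ending in _x_at or _s_at, with quantile-normalized arrays and with 16 added to every signal. With no floor they were 10 higher and 7 lower of 66, or 25.8%, beside 19.6% of all genes, and 16 of these 17 had at least 1 signal under the floor. With each gene's median over its probe sets they were 0 and 0, since the probe sets of Adamts16 differ in sign. At 1.5-fold they were 2 and 3. The median log2 ratio of -0.0067 was 0.077 with no floor and -0.069 with the higher floor, and lay between -0.0069 and 0.038 under the other settings. Of the 29 members above the floor in both arrays, Adam10 alone changed sign, with the median over probe sets and with quantile normalization, from a ratio of 0.0088. The Adam12 ratio of 0.83 was 0.33 with the median over probe sets, and Adamts6 was not measured with the higher floor. No paired analysis was possible because each genotype had 1 array. MAS5 ratios near the floor are noisy, which limits Mmp9, Mmp7, Adam5, Adam33, Adamts20 and Adamtsl2 to bounds.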

Other observations

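Cells of the immune system went in different directions beside the leukocyte-associated members Mmp9 and Adam8. Of the mast cell markers, 4 of 5 measured had negative ratios, with Kit, Cpa3 and Cma1 at -1.97, -1.27 and -1.03, while Hdc had 0.65. Their summed signal was 1762 in the null and 1717 in the control array. Hdc made up most of it, at 1516 in the null and 968 in the control array. Natural killer and T cell markers were positive in 6 of 7 measured, with Cd3d, Gzma and Gzmb at 1.11, 0.89 and 0.87. Of 5 probe sets whose annotation joins Adam1a with Mapkapk5 or Adam6a with Adam6b, the one with a signal above the floor had 32.1 in the null and 26.3 in the control array.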
